A study of Mus musculus with 35 samples.

Results

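JMJD1B, encoded by Kdm3b, removes methyl groups from lysine 9 of histone H3 (H3K9), and its gene was inactivated in the mice behind these data. The expression of 8 H3K9 demethylase genes was examined in hematopoietic stem/progenitor cells (HSPCs) that carry or lack it. They are Kdm3b itself and 7 genes chosen because their products act on the same residue, namely Kdm3a, Jmjd1c, Kdm1a, Kdm4a, Kdm4b, Kdm4c and Phf8. All 8 were among the 11982 gene names of the deposited expression table, and all 8 passed the filter on low values. Methylation of H3K9 marks silent chromatin, and its mono-, di- and trimethylated forms are erased by different enzyme families. The JmjC-domain enzymes KDM3, KDM4 and PHF8 use iron, oxygen and 2-oxoglutarate, and prefer mono- and dimethyl (KDM3, PHF8) or di- and trimethyl lysine (KDM4). KDM1A, also called LSD1, is instead an FAD-dependent amine oxidase that acts mainly on H3K4 and, in some complexes, on H3K9, and is required for blood cell formation. The question addressed was whether transcripts of the other enzymes were higher where Kdm3b was lost.

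RNA-seq of polyA RNA was performed on bone marrow HSPCs from 129P2xC57BL/6J mice, with 2 biological replicates that were wild type (WT) and 2 that were JMJD1B-/- from a gene trap, which interrupts transcription of a gene by an inserted cassette. Adult mice of both sexes were used in the study, and the age and sex behind each library are not given in the sources used here. Expression is given as RPKM, a read density scaled to transcript length and to the mapped reads of the library, so that levels of different genes can be compared. Depth relative to WT replicate 1, estimated from the steps between low values, was 1.4 for WT replicate 2, and 0.35 and 1.2 for JMJD1B-/- replicates 1 and 2.

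Kdm3b was the only member lower in JMJD1B-/- HSPCs at an adjusted p under 0.05. WT replicates 1 and 2 showed 31.0 and 24.3 RPKM of Kdm3b, against 4.00 and 4.63 RPKM in JMJD1B-/- replicates 1 and 2. Both libraries labelled as knockout were thus far below both WT libraries, as their labels say. The means were 27.6 ± 4.73 and 4.31 ± 0.447 RPKM (SD, n = 2 each), so that 15.6% of the WT level was left, 14.5% in replicate 1 and 16.7% in replicate 2. Which exons the remaining reads cover was not analysed here, so transcript upstream of the trap and transcript that escapes it cannot be told apart. The log2 fold change was -2.65 ± 0.24 (SE), with a 95% interval from -3.21 to -2.08 and an adjusted p = 0.0314 in limma. Only 55 of the 11863 genes tested had a more negative log2 fold change, and 2 had a smaller p. The adjusted p was 0.549 without WT replicate 1 and 0.457 without WT replicate 2, with log2 fold changes of -2.47 and -2.82. It was also above 0.05 after median-ratio scaling (0.0602) and quantile normalization (0.0978), in limma without a trend (0.212) and when each gene was tested by its own variance (0.608).

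**Figure D1:**
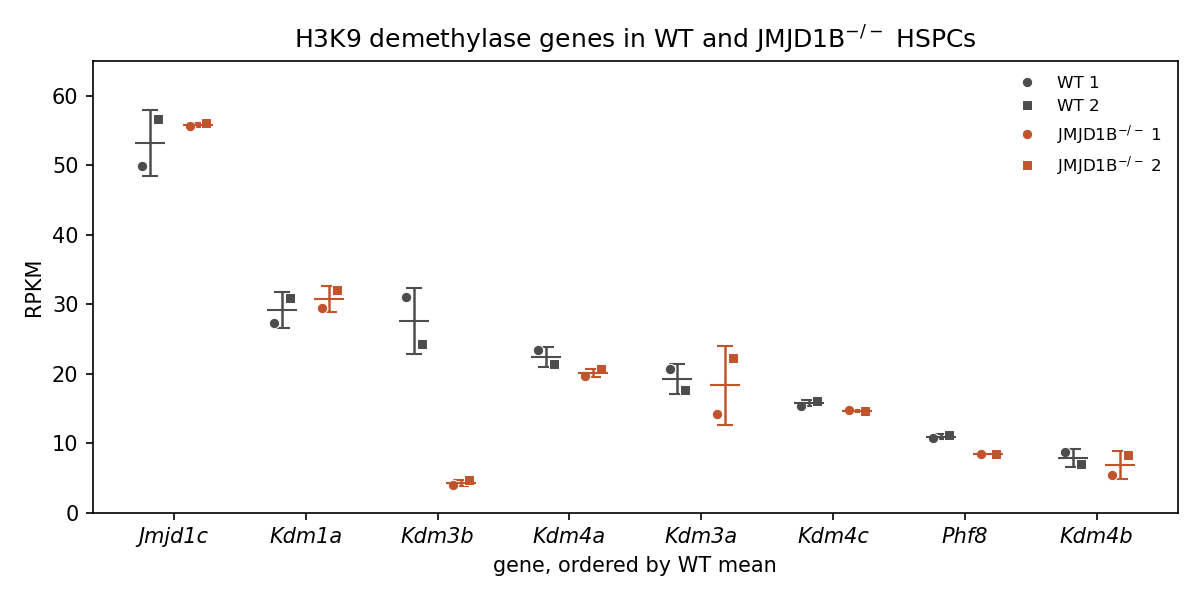
RPKM of the 8 H3K9 demethylase genes in each library, ordered by WT mean. Points are single libraries (circles replicate 1, squares replicate 2), horizontal marks are means and bars are SD (n = 2); Kdm3b went from a mean of 27.6 to 4.31 RPKM, while WT and JMJD1B-/- means of each other gene were within 2.55 RPKM of each other.

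Counted over all members, 1 of 8, the inactivated Kdm3b itself, was lower at an adjusted p under 0.05, and none was higher. Of all genes tested, 0.0337% were lower and 0.00843% higher. At an unadjusted p under 0.05 Kdm3b was again the 1 member lower and 0 were higher, against 6.33% and 3.81% of all genes tested. None of the 7 other members was thus called at either threshold. The 7 members beside Kdm3b had log2 fold changes between -0.36 and 0.08, and their adjusted p-values in limma ran from 0.626 to 0.925. For 5 of them the value was below 0 and for 2 above. Both JMJD1B-/- libraries were below both WT libraries for 3 of these 7 genes (Kdm4a, Kdm4c and Phf8), an arrangement seen in 22.7% of all genes tested, and the opposite arrangement, seen in 20.1% of all genes tested, occurred for none. The upper ends of the 95% intervals of the 7 genes lay between 1.12-fold and 1.43-fold of the WT level, and the half-widths of the intervals between 0.41 and 0.71 on the log2 scale.

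The closest relatives of Kdm3b are Kdm3a and Jmjd1c, which encode the other members of the KDM3 family. Kdm3a was at 20.7 and 17.6 RPKM in WT HSPCs and at 14.2 and 22.3 RPKM in JMJD1B-/- HSPCs. The JMJD1B-/- libraries thus lay on either side of the WT libraries, and differed from each other by 1.57-fold. The log2 fold change was -0.10 ± 0.26 (SE), with an interval from -0.71 to 0.51 and an adjusted p = 0.925 in limma. Its sign rested on single libraries, since leaving out JMJD1B-/- replicate 1 gave 0.22 and leaving out WT replicate 1 gave 0.01.

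Jmjd1c encodes a large nuclear protein that is known for roles in leukemia and whose H3K9 activity is less settled than that of its relatives. It had the highest level of all members in every library, at 49.9 and 56.6 RPKM in WT and 55.6 and 56.0 RPKM in JMJD1B-/- HSPCs. Both JMJD1B-/- values fell between the WT values. The log2 fold change was 0.07 ± 0.17 (SE), with an interval from -0.34 to 0.48 and an adjusted p = 0.920 in limma, and it was -0.02 without WT replicate 1. On the RPKM scale, the upper end of the interval was 20.9 RPKM above the WT mean for Jmjd1c and 8.17 RPKM for Kdm3a. Kdm3b was lower by 23.3 RPKM. Each bound is for 1 gene alone, and whether a joint rise could match this loss was not tested.

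Added together, the KDM3 family genes reached 102 and 98.6 RPKM in WT replicates 1 and 2, against 73.9 and 82.9 RPKM in the JMJD1B-/- replicates. The mean was 100 ± 2.10 RPKM in WT and 78.4 ± 6.40 RPKM in JMJD1B-/- HSPCs (SD, n = 2 each), a difference of -21.7 RPKM that is close to the loss of Kdm3b alone. Without Kdm3b the sum was 70.5 and 74.3 RPKM in WT and 69.9 and 78.3 RPKM in JMJD1B-/- libraries, so the JMJD1B-/- libraries lay outside the WT libraries on both sides. The difference of these means was 1.66 RPKM, and its sign rested on single libraries. It was 5.86 RPKM without JMJD1B-/- replicate 1, 3.52 RPKM without WT replicate 2, -0.207 RPKM without WT replicate 1, -2.55 RPKM without JMJD1B-/- replicate 2 and -0.572 RPKM after quantile normalization. Kdm3b supplied 30.5% and 24.6% of the family's RPKM in the WT libraries and 5.41% and 5.58% in the JMJD1B-/- libraries. The share of Jmjd1c was 49.1% and 57.5% in WT against 75.3% and 67.5% in JMJD1B-/- libraries, although its own level was within the range of WT. The sums were not tested.

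**Figure D2:**
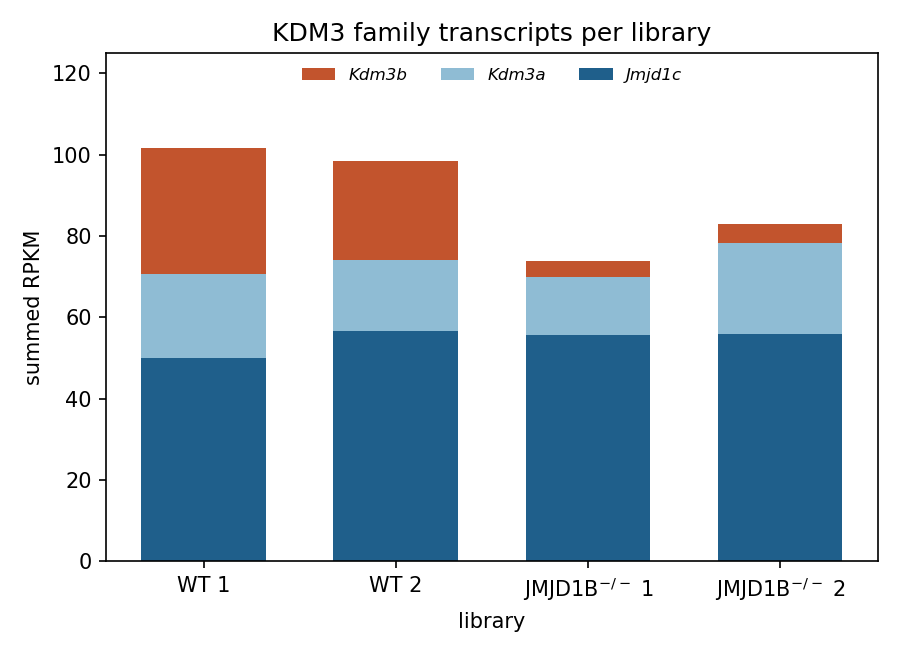
Summed RPKM of Kdm3b, Kdm3a and Jmjd1c in each of the 4 libraries, stacked by gene. The family total was 102 and 98.6 RPKM in WT and 73.9 and 82.9 RPKM in JMJD1B-/- libraries, and the segment that differs by more than the spread within a genotype is Kdm3b.

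Kdm3a is known as a gene induced by hypoxia-inducible factors (HIF). Its promoter is shown beside that of Jmjd1c, a relative that varied less between the JMJD1B-/- libraries. Of the 7 members beside Kdm3b, RefSeq promoters (GRCm38.p6, 250 bases before to 50 after the start) were found for 6, in 10 windows. The promoter of Kdm3b itself was not searched. The letters ACGTG and GCGTG, the core of HIF binding sites, were searched on both strands, so that CACGT and CACGC are matches as well. A match was present in 5 of the 10 windows, and in 43.8% of all 32851 promoters of this length. The first Kdm3a window lies on the minus strand at chr6:71632868-71633167 and the first Jmjd1c window on the plus strand at chr10:67126838-67127137, with matches in capitals.
Kdm3a: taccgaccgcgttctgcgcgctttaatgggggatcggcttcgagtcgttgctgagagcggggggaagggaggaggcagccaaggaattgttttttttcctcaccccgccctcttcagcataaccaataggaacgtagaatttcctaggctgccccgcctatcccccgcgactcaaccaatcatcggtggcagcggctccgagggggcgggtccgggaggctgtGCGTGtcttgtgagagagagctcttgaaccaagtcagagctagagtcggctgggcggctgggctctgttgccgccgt
Jmjd1c: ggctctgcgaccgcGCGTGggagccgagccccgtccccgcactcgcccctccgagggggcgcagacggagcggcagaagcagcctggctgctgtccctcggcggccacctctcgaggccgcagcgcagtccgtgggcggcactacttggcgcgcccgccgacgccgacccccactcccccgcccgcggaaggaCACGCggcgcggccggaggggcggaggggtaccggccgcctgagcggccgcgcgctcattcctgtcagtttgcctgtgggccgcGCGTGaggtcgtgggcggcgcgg
Kdm3a had 1 match in this window and none in its other 2 windows, and Jmjd1c had 3 matches in this window and none in its other. Of 20 genes induced by HIF that were tested, 15 had a log2 fold change below 0 and 5 above, where 6285 and 5578 of all 11863 genes did. Their median was -0.12 against -0.02 for all genes tested, and it was 0.08 against 0.09 without JMJD1B-/- replicate 1 and -0.32 against -0.10 without JMJD1B-/- replicate 2. At an unadjusted p under 0.05, 2 were lower and 0 higher in limma (against 6.33% and 3.81% of all genes tested), and 0 passed after adjustment. These were Egln3, which encodes an oxygen-sensing prolyl hydroxylase and stood at 3.47 and 2.99 RPKM in WT against 2.02 and 0.619 RPKM in JMJD1B-/- libraries, and Ndrg1, at 20.8 and 15.9 against 9.35 and 14.1 RPKM. The log2 fold change of Egln3 was -1.43, with -2.21 and -0.65 without JMJD1B-/- replicates 1 and 2, and -1.32 and -1.53 without WT replicates 1 and 2. That of Ndrg1 was -0.66, with -0.37, -0.95, -0.47 and -0.85 in the same order. The adjusted p was 0.486 for Egln3 and 0.483 for Ndrg1, and the unadjusted p of each was above 0.05 without either WT replicate and without 1 of the JMJD1B-/- replicates. It was also above 0.05 for both genes in limma without a trend and when tested by their own variance, and for Egln3 after both scalings and with a mean RPKM of at least 1. Between the JMJD1B-/- libraries, the median of the 20 HIF genes was higher in replicate 2 by 0.18 on the log2 scale. The median of all genes tested was higher by 0.18 as well. In replicate 2, 14 of the 20 were higher, against 7779 of all 11863 genes. Any part of HIF in the values of Kdm3a was not tested.

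Kdm1a was the most abundant of the members outside the KDM3 family. Its level was 27.3 and 30.9 RPKM in WT and 29.5 and 32.1 RPKM in JMJD1B-/- HSPCs, and the ranges of the genotypes overlapped. The log2 fold change was 0.08 ± 0.19 (SE; interval from -0.35 to 0.52) with an adjusted p = 0.911 in limma, and it was -0.01 without WT replicate 1. KDM1A works in the CoREST complex with histone deacetylases, and the transcription factors GFI1 and GFI1B bring this complex to their target genes in blood cells. Of 13 genes of this group, 1 was lower and 1 higher at an unadjusted p under 0.05 in limma (against 6.33% and 3.81% of all genes tested), 0 passed after adjustment, and the median log2 fold change was 0.04. Gfi1b, which acts in erythroid and megakaryocytic cells, was at 24.3 and 23.2 RPKM in WT and at 35.5 and 50.7 RPKM in JMJD1B-/- libraries (log2 fold change 0.84 ± 0.22, adjusted p = 0.309). Gfi1, which acts in stem cells and in granulocyte and lymphoid development, was at 3.48 and 3.74 RPKM in WT and at 2.35 and 0.732 RPKM in JMJD1B-/- libraries (log2 fold change -1.37 ± 0.58, adjusted p = 0.486). Leaving out JMJD1B-/- replicate 1 gave 1.09 for Gfi1b and -2.15 for Gfi1, and leaving out JMJD1B-/- replicate 2 gave 0.58 and -0.59. Gfi1b kept an unadjusted p under 0.05 without each of the 4 libraries but not when tested by its own variance, and Gfi1 did not without WT replicate 1, WT replicate 2 or JMJD1B-/- replicate 2, nor in 5 other settings, among them both scalings.

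The KDM4 family, which removes trimethylation of H3K9 and H3K36, had a lower summed level than the KDM3 family. Kdm4a was at 23.4 and 21.4 RPKM in WT and at 19.7 and 20.6 RPKM in JMJD1B-/- libraries, with a log2 fold change of -0.15 ± 0.19 (SE) and an adjusted p = 0.817 in limma. Kdm4c was at 15.4 and 16.1 RPKM in WT and at 14.7 and 14.6 RPKM in JMJD1B-/- libraries, with a log2 fold change of -0.11 ± 0.20 and an adjusted p = 0.890. Both genes were thus slightly below WT in both JMJD1B-/- libraries, by amounts that did not pass the test. Kdm4b, another gene known to respond to HIF, was at 8.75 and 6.99 RPKM in WT and at 5.38 and 8.26 RPKM in JMJD1B-/- libraries, with a log2 fold change of -0.23 ± 0.30 and an adjusted p = 0.832. It was the least abundant member in WT, and its value turned to 0.08 without JMJD1B-/- replicate 1. The sum of the 3 genes was 46.0 ± 2.25 RPKM in WT and 41.6 ± 2.57 RPKM in JMJD1B-/- HSPCs (SD, n = 2 each).

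PHF8 binds trimethylated H3K4 through its PHD finger and demethylates H3K9 at active promoters, and its gene lies on the X chromosome. With all 4 libraries, Phf8 had the log2 fold change farthest from 0 among the members beside Kdm3b. Without JMJD1B-/- replicate 2, Kdm4b (-0.53) and Kdm3a (-0.42) were farther from 0 than Phf8 (-0.36). Without WT replicate 2, Kdm4b (-0.39) was farther than Phf8 (-0.33). WT HSPCs had 10.7 and 11.2 RPKM, and JMJD1B-/- HSPCs had 8.49 and 8.47 RPKM, which is 77.6% of the WT mean. Libraries of a genotype differed by 0.479 RPKM in WT and by 0.0141 RPKM in JMJD1B-/- HSPCs, less than the difference of 2.45 RPKM between genotypes. The log2 fold change was -0.36 ± 0.23 (SE), with an interval from -0.89 to 0.17 and an adjusted p = 0.626 in limma, and 37.8% of all genes tested had a larger absolute log2 fold change. Among the settings tried, an unadjusted p under 0.05 was reached only when each gene was tested by its own variance, and it did not pass after adjustment.

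**Figure D3:**
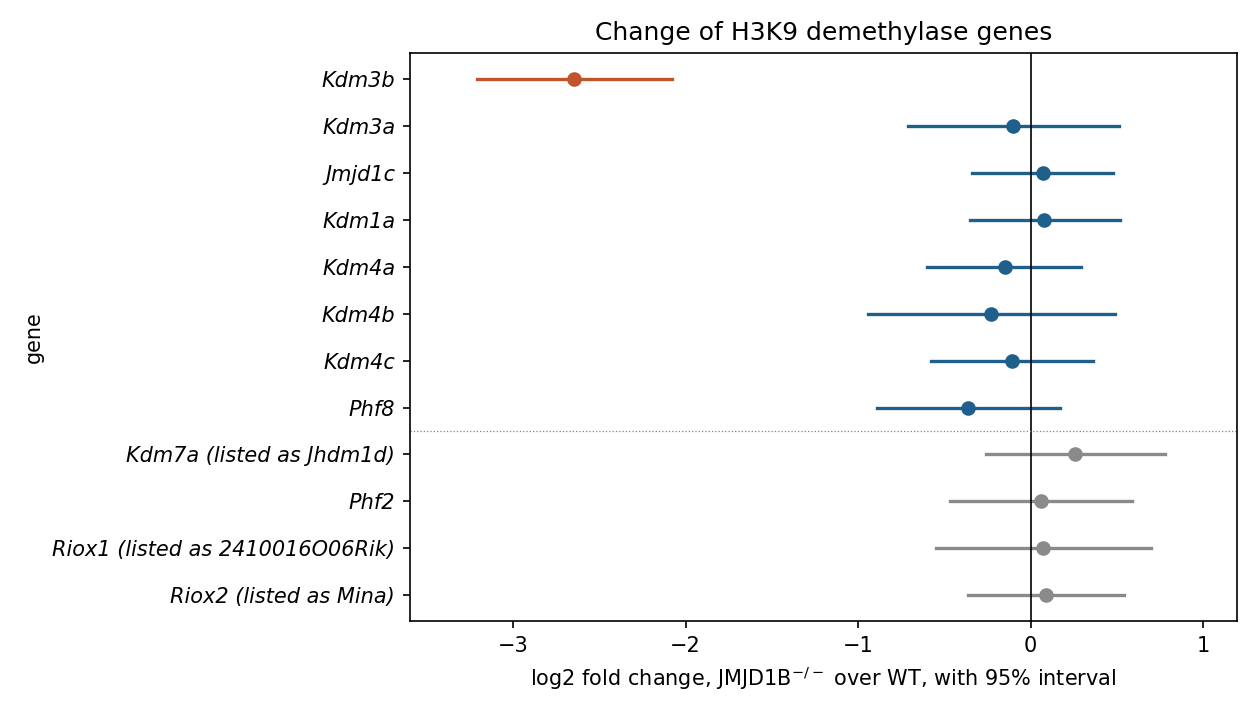
Log2 fold change on the scale of log2(RPKM + 0.1), JMJD1B-/- over WT, with 95% intervals from limma (2 libraries per genotype); red marks Kdm3b, blue the 7 other members, grey the further H3K9 demethylase genes. The interval of Kdm3b ran from -3.21 to -2.08, and every other interval shown included 0.

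Of 6 further genes for enzymes with reported activity on H3K9 or a related site, 4 were tested and none passed at an unadjusted p under 0.05 in limma (against 6.33% of all genes tested lower and 3.81% higher) or after adjustment. Their log2 fold changes were all above 0, with a median of 0.08. Leaving out JMJD1B-/- replicate 1 moved this median to 0.24 and that of all genes tested to 0.09, and leaving out JMJD1B-/- replicate 2 moved them to -0.05 and -0.10. The largest was that of Kdm7a, listed as Jhdm1d, a relative of Phf8, which was at 9.05 and 9.62 RPKM in WT and at 11.4 and 11.0 RPKM in JMJD1B-/- libraries (log2 fold change 0.26 ± 0.22, adjusted p = 0.720). As for Phf8, an unadjusted p under 0.05 was reached only when each gene was tested by its own variance, and it did not pass after adjustment. Riox2, listed as Mina, had 20.6 and 19.7 RPKM in WT and 20.5 and 22.5 RPKM in JMJD1B-/- libraries (log2 fold change 0.09 ± 0.19, adjusted p = 0.907). Kdm4d and Hr were not analysed here.

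In WT HSPCs the order of levels was Jmjd1c (53.2 RPKM), Kdm1a (29.1), Kdm3b (27.6), Kdm4a (22.4), Kdm3a (19.2), Kdm4c (15.8), Phf8 (10.9) and Kdm4b (7.87 RPKM), as means of 2 libraries. The values of Kdm1a and Kdm3b overlapped, and the values of all other neighbours in this order were apart in both libraries. In JMJD1B-/- HSPCs Kdm3b came last in both libraries, and the means of the other 7 genes were in the same order as in WT, with overlapping values for Kdm4a and Kdm3a and for Kdm3a and Kdm4c. Over all 8 members the summed level was 187 and 185 RPKM in WT and 152 and 167 RPKM in JMJD1B-/- libraries. Without Kdm3b it was 156 and 161 RPKM in WT and 148 and 162 RPKM in JMJD1B-/- libraries, a difference in means of -3.54 RPKM that was 3.80 RPKM without JMJD1B-/- replicate 1 and -10.9 RPKM without JMJD1B-/- replicate 2.

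The members also differed in how far the JMJD1B-/- libraries were from each other. Kdm3a and Kdm4b were higher in replicate 2 than in replicate 1 by 0.64 and 0.61 on the log2 scale, whereas the median gene was higher by 0.18. For Jmjd1c, Kdm4a, Kdm4c and Phf8 this difference was between -0.01 and 0.06. Replicate 1 was the library with the lowest depth. The part of depth in these differences was not tested. Among all genes tested, 35.6% lay farther from the median difference than Kdm3a and 38.0% farther than Kdm4b.

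Demethylases of other lysines and further JmjC genes were examined as a background of related enzymes. All 21 genes of the list were tested, 0 passed at an unadjusted p under 0.05 in limma (against 6.33% of all genes tested lower and 3.81% higher) or after adjustment, and the median log2 fold change was 0.09 against -0.02. The largest values belonged to Uty and Kdm5d, Y-linked relatives of Kdm6a and Kdm5c. Kdm5d was at 10.7, 0.265, 9.0 and 11.0 RPKM in WT replicates 1 and 2 and JMJD1B-/- replicates 1 and 2, and Uty at 17.7, 0.453, 15.7 and 18.9 RPKM. WT replicate 2 stood apart for both, and without it their log2 fold changes went from 2.34 to -0.11 for Kdm5d and from 2.47 to -0.03 for Uty. In the same library Xist, which is transcribed from the inactive X chromosome of females, was at 332 RPKM, and at 0.051 RPKM or less in the other 3, while Ddx3y was at 0.411 RPKM there and between 25.5 and 29.3 RPKM elsewhere. WT replicate 2 thus had the marker pattern of female cells, and the other 3 libraries had that of male cells. The log2 fold change of X-linked Phf8 without WT replicate 2 was -0.33, close to that with it.

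The JmjC enzymes consume 2-oxoglutarate, and succinate and fumarate inhibit them, so genes of this metabolism were examined next. Of 21 genes tested, 15 had a log2 fold change above 0 and 6 below, against 5578 and 6285 of all genes tested. The median was 0.17 against -0.02 for all genes tested. Leaving out JMJD1B-/- replicate 2 gave -0.04 against -0.10, and leaving out JMJD1B-/- replicate 1 gave 0.35 against 0.09. At an unadjusted p under 0.05, 2 were higher, where 3.81% of all genes tested were, and 0 lower in limma, and 0 passed after adjustment. These were Sdhc and Sdhd, which encode the membrane anchors of succinate dehydrogenase, the enzyme that oxidizes succinate. Sdhc was at 25.3 and 33.2 RPKM in WT and at 41.7 and 43.6 RPKM in JMJD1B-/- libraries (log2 fold change 0.56 ± 0.20, adjusted p = 0.433). Sdhd was at 39.7 and 37.3 RPKM in WT and at 47.6 and 76.8 RPKM in JMJD1B-/- libraries (log2 fold change 0.65 ± 0.25, adjusted p = 0.449). Its log2 fold change was 1.0 and 0.31 without JMJD1B-/- replicates 1 and 2, and 0.7 and 0.6 without WT replicates 1 and 2. That of Sdhc ran from 0.36 to 0.75 with each library left out in turn. The unadjusted p was above 0.05 without WT replicate 1 for both, and also without WT replicate 2 or JMJD1B-/- replicate 2 for Sdhd. Neither gene passed in limma without a trend or when tested by its own variance.

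Genes next to Kdm3b were read to see whether the trapped locus differed as a whole. The nearest 5 genes on each side that the table lists, taken from the RefSeq order of GRCm38.p6, were Brd8, Kif20a, Cdc23, Cdc25c and Fam53c on one side and Reep2, Egr1, Etf1, Hspa9 and Ctnna1 on the other. Their median log2 fold change was 0.12, against -0.02 for all genes tested. Of these 10 genes, 1 was lower and 0 higher at an unadjusted p under 0.05 in limma (against 6.33% and 3.81% of all genes tested), and 0 passed after adjustment. The gene was Brd8, which encodes a bromodomain protein of the NuA4 histone acetyltransferase complex, at 43.1 and 49.9 RPKM in WT and 33.7 and 35.4 RPKM in JMJD1B-/- libraries (log2 fold change -0.42 ± 0.18, adjusted p = 0.491). Its unadjusted p was above 0.05 without either WT replicate and without JMJD1B-/- replicate 1, and in 3 other settings.

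The genes with the profile most like that of Kdm3b over the 4 libraries, by Euclidean distance between log2(RPKM + 0.1) values centred on the WT mean, were Anxa3 (0.40), C3 (0.49), Nrg2 (0.50), Il17rb (0.52) and Ldhb (0.53). Anxa3, the gene of a phospholipid-binding annexin, was the nearest and went from 15.4 and 11.5 RPKM in WT to 2.42 and 2.59 RPKM in JMJD1B-/- libraries (log2 fold change -2.37 ± 0.29, adjusted p = 0.0640 in limma). Il17rb, a receptor gene of the interleukin-17 family, went from 9.75 and 6.23 to 1.40 and 0.992 RPKM, and Ldhb, a lactate dehydrogenase subunit gene, from 5.68 and 4.20 to 0.631 and 1.13 RPKM. C3 and Nrg2 were between 1.02 and 1.61 RPKM in WT and between 0.0950 and 0.184 RPKM in JMJD1B-/- libraries, and their fold changes depend on the pseudocount. With a pseudocount of 1 the log2 fold change went from -2.64 to -0.97 for C3 and from -2.32 to -0.97 for Nrg2, and with 0.01 to -3.39 and -2.79. Among the other members the nearest to Kdm3b was Phf8, at a distance of 3.25 and in place 2528.

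The cells behind the libraries differed in marker genes, and this applies to every comparison above, since in bulk samples fewer cells of a type and less RNA per cell cannot be told apart. Of 40 marker genes, 33 were listed in the table. The stem and progenitor markers Kit, Gata2, Meis1, Cd34 and Flt3 were present in every library, as the label says, and all 8 genes of this list summed to 286 and 247 RPKM in WT and 158 and 208 RPKM in JMJD1B-/- libraries. Of these 8, 6 had a log2 fold change below 0, with a median of -0.71, and 4 had an unadjusted p under 0.05, all of them lower (against 6.33% of all genes tested), while none passed after adjustment. Cd34 was at 42.9 and 43.5 RPKM in WT and at 20.9 and 11.7 RPKM in JMJD1B-/- libraries, Flt3 at 25.1 and 32.6 against 18.4 and 3.37 RPKM, Gata2 at 73.3 and 52.9 against 28.4 and 46.9 RPKM, and Meis1 at 53.9 and 39.7 against 24.1 and 37.4 RPKM. Only Cd34 kept its unadjusted p under 0.05 without each of the 4 libraries. Kit, which had the highest mean of the list, was at 66.9, 62.5, 51.6 and 92.7 RPKM in WT replicates 1 and 2 and JMJD1B-/- replicates 1 and 2. For the other lists the gene named first has the highest mean over the libraries. The 5 erythroid markers, Hbb-b1 first, summed to 133 and 196 RPKM in WT and 413 and 942 RPKM in JMJD1B-/- libraries, and all 5 were higher at an unadjusted p under 0.05 (against 3.81% of all genes tested), with 0 past adjustment. The 4 basophil and mast cell markers, Prss34 first, summed to 422 and 502 RPKM in WT and 86.9 and 39.6 RPKM in JMJD1B-/- libraries, and the 3 megakaryocyte markers, Pf4 first, to 510 and 446 against 173 and 284 RPKM. Of the megakaryocyte markers, 2, Pf4 and Itga2b, were lower at an unadjusted p under 0.05 (against 6.33% of all genes tested). With each library left out in turn, log2 fold changes ran from -1.82 to -0.97 for Pf4 and -0.93 to -0.36 for Itga2b. Gp1bb was at 4.96, 4.58, 4.55 and 4.70 RPKM. All 4 basophil and mast cell markers were lower at an unadjusted p under 0.05 (against 6.33% of all genes tested), and 1 of them, Prss34, after adjustment (log2 fold change -3.35 ± 0.23, adjusted p = 0.00637 in limma). No gene was lower at an adjusted p under 0.05 after either scaling, in limma without a trend, when each gene was tested by its own variance or without WT replicate 2, so Prss34 did not pass there. These erythroid and basophil calls at an unadjusted p were kept without each of the 4 libraries. The remaining lists had smaller sums, which were 10.3, 6.19, 18.0 and 22.9 RPKM for 4 neutrophil markers (S100a8 first; Camp at 0 in WT replicate 2 and JMJD1B-/- replicate 1). The 2 neutrophil markers tested, S100a8 and S100a9, were higher at an unadjusted p under 0.05 (against 3.81% of all genes tested). Leaving out each library in turn gave log2 fold changes from 0.4 to 1.0 for S100a8 and 1.7 to 2.64 for S100a9. For 3 monocyte-macrophage markers, Csf1r first, the sums were 16.6, 13.3, 18.4 and 6.81 RPKM, but the genes moved apart. Csf1r was at 9.22, 7.73, 3.75 and 1.45 RPKM, while Emr1 was at 5.05, 1.06, 13 and 1.61 RPKM. The 3 T and NK cell markers, Nkg7 first, summed to 15.3, 17.1, 17.2 and 7.32 RPKM, with Nkg7 at 14, 15.3, 7.19 and 4.84 RPKM and Cd3e at 1.13, 1.40, 7.98 and 2.32 RPKM. For 3 stroma and endothelium markers, Pecam1 first, the sums were 35.3, 55.5, 22.9 and 9.07 RPKM. Here WT replicate 2 stood apart in Col1a1 (0.997, 15.7, 2.13 and 0.998 RPKM) and Cxcl12 (0.293, 5.92, 1.26 and 0.0996 RPKM), and Pecam1 was at 34.0, 33.9, 19.5 and 7.97 RPKM. Csf1r, Nkg7 and Pecam1 were lower and Cd3e higher at an unadjusted p under 0.05 in limma (against 6.33% and 3.81% of all genes tested), with 0 past adjustment. With each library left out in turn, log2 fold changes ran from -2.46 to -1.15 for Csf1r and -1.58 to -1.02 for Nkg7. They ran from -2.08 to -0.79 for Pecam1 and 0.83 to 2.57 for Cd3e. B cell markers were not analysed here. The part of these differences in the values of the H3K9 demethylase genes was not tested.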

How the data were processed

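Expression was read from 1 table that the authors deposited, with RPKM + 1 per gene for 4 HSPC RNA libraries (TruSeq kit, polyA RNA). Per the labels, the processing notes name Novoalign, TopHat2 and build mm9, without versions, and the counting program is not given in the sources used here. RPKM was taken as the deposited value minus 1, and the 42 names shared by several of the 12024 entries were averaged. Every listed gene has an RPKM above 1 in at least 1 library. The ChIP samples were not used here.

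For the 11863 genes whose mean RPKM was 0.5 or more, values were set to log2(RPKM + 0.1) and the genotypes compared by limma (version 3.58.1, under R 4.3.3), by lmFit followed by eBayes with an intensity trend, two-sided. P-values were adjusted by Benjamini-Hochberg over all of them; a fold change on this scale understates the change of low genes. An exact permutation test of 2 against 2 libraries cannot give a p under 0.333. The test was checked on simulated data. Means are given with SD, and log2 fold changes with SE and 95% intervals. Relative depth came from low genes whose 4 values are whole multiples of 1 read within 0.004 of a read (336 genes). Among candidate ratios, those were kept for which reads were multiples of 2, 3 and 5 about equally often in every library. Python 3.11.15 was used for tables (pandas 2.3.3, numpy 2.4.6) and figures (matplotlib 3.10.9).

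Named genes were all members, the neighbours of Kdm3b, the 5 genes most like Kdm3b and marker genes. From each other list, every gene with an unadjusted p under 0.05 was named, or else the 2 with the largest change. Members and lists were chosen with earlier results of these data known, and no p was adjusted over a list. The RefSeq gene table (GRCm38.p6) was used to match symbols to the deposited table and to list the neighbours of Kdm3b, and RefSeq promoter sequences of the same build were searched for a motif. Alternatives were pseudocounts of 1 and 0.01, no filter or one at a mean RPKM of 1, scaling by median ratios or quantiles, limma without a trend, an equal-variance test of each gene by itself, a replicate block, each library left out, and the highest entry of a shared name.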

Additional observations from a re-analysis of the deposited data

How the results depend on the processing

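Kdm3b had a log2 fold change between -2.82 and -2.42 under all 14 alternatives, each with an unadjusted p under 0.05. Its adjusted p ran from 7.36e-07 to 0.608 and was under 0.05 in 8 of them. It was not after median-ratio scaling (log2 fold change -2.63), after quantile normalization (-2.59), in limma without a trend (-2.65), in the gene-by-gene test (-2.65), or without either WT library (-2.47 and -2.82), and the cause was not tested. The 7 other members gave 98 values, of which 0 passed after adjustment and 1, that of Phf8 in the gene-by-gene test, had an unadjusted p under 0.05. The sign turned in 5 of these, namely Kdm3a (0.01), Jmjd1c (-0.02) and Kdm1a (-0.01) without WT replicate 1, and Kdm3a (0.22) and Kdm4b (0.08) without JMJD1B-/- replicate 1. With each library left out in turn, values ran from -0.42 to 0.22 for Kdm3a, -0.02 to 0.16 for Jmjd1c, -0.01 to 0.17 for Kdm1a and -0.53 to 0.08 for Kdm4b. For Uty and Kdm5d they were -0.03 and -0.11 without WT replicate 2, and 4.97 and 4.78 without WT replicate 1. Summed levels moved by less than the spread between libraries after either scaling.

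Of all genes tested, 751 were lower and 452 higher at an unadjusted p under 0.05, and 4 and 1 at an adjusted p under 0.05. Leaving out 1 library, where the lone library of a genotype is assumed to vary like the others, moved these to between 190 and 1777, 127 and 1367, 0 and 653, and 1 and 336. The adjusted counts were 15 lower and 3 higher with a pseudocount of 1, 2 lower with a pseudocount of 0.01 or a mean RPKM of at least 1, 0 lower after median-ratio scaling or quantile normalization, and 0 in both directions in limma without a trend or the gene-by-gene test. The lower genes made up 62.4% of calls at an unadjusted p under 0.05, 51.7% after quantile normalization, 49.7% without JMJD1B-/- replicate 1 and 70.8% without JMJD1B-/- replicate 2. With the replicate block in limma, 173 were lower and 83 higher after adjustment, among the latter Gfi1b (adjusted p = 0.0263) and Uty (0.0334). The replicate numbers are only shared numbers, and deviations of libraries with the same number had a correlation of -0.0543 over genes, so no paired reading is made of it. Of 7 list genes with an unadjusted p under 0.05, markers aside, 6 lost it without at least 1 library and 1, Gfi1b, kept it without each. Without WT replicate 1 the median of other lysine demethylases and JmjC genes was -0.06 (all genes -0.02), without WT replicate 2 that of LSD1-CoREST partners was -0.07 (all genes -0.03), and without JMJD1B-/- replicate 2 those of LSD1-CoREST partners and neighbours of Kdm3b were -0.03 and -0.05 (all genes -0.10). Leaving out JMJD1B-/- replicate 1 gave 0.11 for LSD1-CoREST partners and 0.29 for neighbours of Kdm3b (all genes 0.09). JMJD1B-/- replicate 1 has the lowest depth.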
